A study of Rattus norvegicus with 9 samples.

Results

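The genes described here copy DNA, make its building blocks or drive cells into S phase, the stage of the cell cycle in which the genome is duplicated. They were taken from a fixed list of 52 names by matching each name to array features annotated with that single gene symbol, and for a gene with several features the one with the highest mean was used. Of the 52 genes, 46 were measured, out of 14506 genes measured in all. Mcm3, Mcm4, Dbf4, Pole2, Chaf1a and Blm matched no such feature and were not analysed here.

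Transcript levels came from Affymetrix Rat Gene 1.0 ST arrays of cultured cells from adult Sprague Dawley rats, with 9 arrays in 3 groups of 3 independent samples. Sciatic nerve Schwann cells, and Schwann cells that had been grown out of skin-derived precursors (SKPs), were both passaged, grown to confluence in a medium for Schwann cells and then collected. SKPs of the dorsal trunk skin grow as floating spheres and were collected as such after passaging. No group carried a transgene or drug treatment in the labels. The SKP arrays are labelled as earlier samples analysed again, so an array batch and the SKP group cannot be told apart. The tissue label reads dermis for all arrays, including those of nerve cells, so groups were taken from the cell type. Confluent growth and sphere growth likewise cannot be told apart from cell type in any comparison with SKPs.

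Before S phase, the origin recognition complex, Cdc6 and Cdt1 load the ring-shaped MCM helicase onto DNA. Kinases and the GINS complex with Cdc45 then switch the helicase on, and polymerases held by the sliding clamp PCNA copy both strands. Ribonucleotide reductase and thymidylate synthase supply the deoxynucleotides, and E2F transcription factors with cyclin E turn on many of these genes as a cell leaves G1. Adult Schwann cells in an intact nerve rarely divide, but in culture they proliferate with suitable mitogens, and SKPs expand as spheres. Array levels are averages over all cells of a culture, so a smaller share of cells in S phase and less RNA per cell cannot be told apart.

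The deposited log2 values did not share a common scale, since array medians lay at 6.82 to 6.87 for nerve cells, 6.33 to 6.44 for the SKP-derived cells and 6.20 to 6.27 for SKPs. Differences are therefore given as deposited and, where it matters, after cyclic loess, a rescaling that brings the bulk of genes on all arrays together. A gene was called at a limma p-value adjusted over all 14506 genes under 0.05. The labelled cell types were borne out by the Schwann cell markers Sox10, S100b, Erbb3, Cdh19 and Ngfr, whose mean level was 11.47 to 11.66 in nerve arrays, 10.40 to 11.53 in SKP-derived Schwann cell arrays and 5.48 to 5.92 in SKP arrays. The mean of 8 dermal mesenchyme markers was 9.34 to 10.61 in nerve, 9.09 to 10.54 in SKP-derived and 10.77 to 12.42 in SKP arrays. No detection calls were used, so no gene is described as absent.

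Replication gene levels were spread more widely within the SKP and SKP-derived groups than the typical gene, and were tight in nerve Schwann cells. Averaged over the 46 genes, the log2 level was 7.27, 7.24 and 7.10 in nerve Schwann cell arrays 1 to 3. It was 7.50, 7.37 and 8.06 in SKP-derived Schwann cell arrays 1 to 3, and 7.84, 7.48 and 6.75 in SKP arrays 1 to 3. The SKP arrays thus held both one of the highest means and the lowest one, and the group means of 7.20 ± 0.09, 7.64 ± 0.36 and 7.36 ± 0.55 (SD, n = 3 each, in the same order) lay within the spread of the SKP arrays. After cyclic loess the nerve arrays fell below the other groups' arrays except SKP array 3, at 7.03, 6.98 and 6.82 against 7.64, 7.56 and 8.18 in SKP-derived Schwann cells and 8.01, 7.66 and 6.91 in SKPs. The median within-group SD of these genes was 0.13 in nerve Schwann cells, 0.39 in SKP-derived Schwann cells and 0.53 in SKPs, beside 0.11, 0.23 and 0.23 over all genes.

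**Figure D1:**
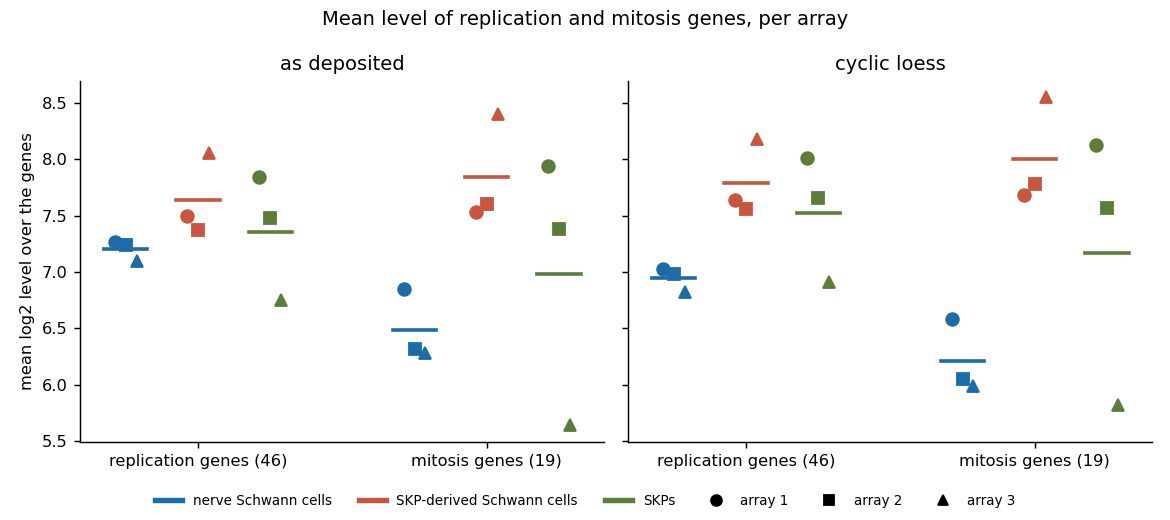
Mean log2 level of the 46 replication genes and of 19 mitosis genes in each of the 9 arrays (y axis), as deposited on the left and after cyclic loess on the right; colours mark the groups, symbols the arrays and lines the group means. SKP array 3 lies lowest of all arrays for both lists as deposited, at 6.75 and 5.64, while SKP-derived array 3 lies highest, at 8.06 and 8.40.

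Mitosis genes, a separate list of kinesins, cyclin B and spindle checkpoint genes of which 19 of 22 were measured, had the same arrays at their ends. Their mean was 6.85, 6.32 and 6.28 in nerve arrays 1 to 3, 7.53, 7.60 and 8.40 in SKP-derived arrays 1 to 3, and 7.94, 7.38 and 5.64 in SKP arrays 1 to 3. The range within SKPs was wider for mitosis genes than for replication genes, as the plot of list means shows.

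SKP array 3 stood apart. It was the lowest of the SKP arrays for 40 of the 46 genes (87.0%), against 35.5% of all genes. The mean of SKP arrays 1 and 2 exceeded array 3 by a median of 0.84 over the 46 genes and by -0.01 over all genes, and by more than 1 for 19 of the 46 genes against 4.73% of all genes. The gap was 3.17 for Rrm2, the regulated subunit of ribonucleotide reductase, 2.79 for the helicase subunit gene Mcm5 and 1.81 for Tyms, which encodes thymidylate synthase. Next came Ccne2, a cyclin E gene, and Pole, the leading-strand polymerase, both at 1.68, then the E2F repressor E2f8 at 1.55 and Cdc6 at 1.51. At the other end, the gap was 0.19 for Pcna, 0.06 for Mcm7, -0.09 for the primase subunit Prim2, -0.13 for Gins3 and -0.33 for Rfc4. SKP array 3 also had the lowest mean of dermal mesenchyme markers (10.77, against 12.41 and 12.42 in SKP arrays 1 and 2) and of 8 macrophage markers (5.58, against 7.63 and 6.25). It had the highest mean of 3 melanocyte markers, of 5 listed (6.20, against 4.78 and 5.18). These markers did not move together between groups: in SKP-derived cells against SKPs Tyrp1 differed by 3.12, Mlana by -2.22 and Tyr by 0.16. The part of other cells in the gap was not tested.

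**Figure D2:**
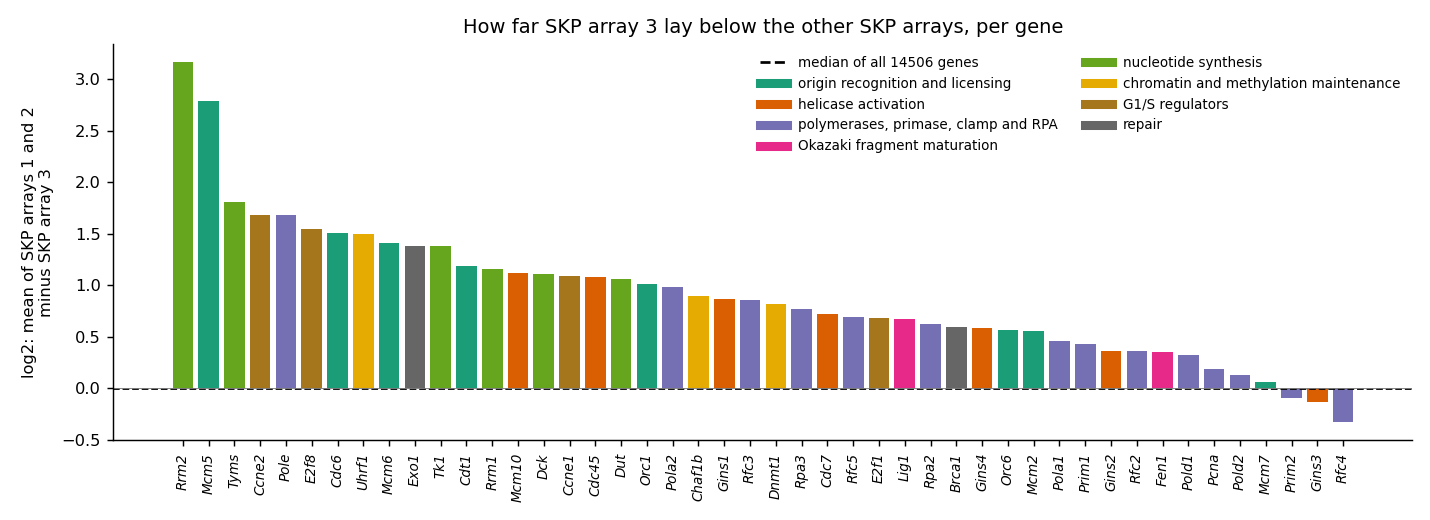
Difference between the mean of SKP arrays 1 and 2 and SKP array 3 on the log2 scale (y axis) for each of the 46 genes (x axis, ordered by size), coloured by role, with the median of all 14506 genes dashed. Bars run from 3.17 for Rrm2 to -0.33 for Rfc4, and 43 of 46 stand above 0.

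The SKP-derived group also had an array at one end, its array 3, which was the highest of its 3 arrays for 43 of the 46 genes as deposited and for 42 after cyclic loess, against 35.4% and 32.7% of all genes. This array had a Schwann cell marker mean of 11.15, between those of arrays 1 (11.53) and 2 (10.40). It lay between them for dermal mesenchyme and keratinocyte markers too. As deposited it was lowest for markers of melanocytes (5.09, against 6.41 and 5.72) and perineurial cells (8.2, against 8.73 and 9.43). The same held for pericyte and smooth muscle (6.52, against 6.98 and 6.88) and endothelial markers (5.07, against 5.32 and 5.12). The part of other cells was not tested. Counts with and without SKP-derived array 3 and SKP array 3 are given below.

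Promoters of the genes were searched for E2F-type sites because the genes are classical targets of E2F factors and several varied together across the SKP arrays. RefSeq (assembly GRCr8) gave a promoter window for 38 of the 46 genes, and the 250 bases before the start site were searched on both strands for TTTCGCGC, TTTGGCGC and TTTCCCGC. At least 1 of these was present in 8 of the 38 promoters (21.1%) and in 1.49% of 27457 rat promoter windows of the same length. The shares were 10.5% against 0.262% for TTTCGCGC, 13.2% against 0.426% for TTTGGCGC and 7.89% against 0.856% for TTTCCCGC. The box CCAAT occurred in 52.6% against 34.3%, and TTTGAA, the core of the cell cycle homology region found in promoters of many mitosis genes, in 7.89% against 16.0%. Stretches of 100 bases are shown for 6 of the 8 promoters, with the match in capitals. They were chosen to set genes whose level dropped in SKP array 3 (Mcm5, Mcm6 and Tyms) beside genes with a smaller gap (Gins1 and Mcm2) or nearly none (Gins3).
Mcm5, chr19:13488595-13488694, plus strand: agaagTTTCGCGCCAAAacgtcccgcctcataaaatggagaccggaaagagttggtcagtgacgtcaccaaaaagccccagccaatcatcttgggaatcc
Mcm6, chr13:42404397-42404496, minus strand: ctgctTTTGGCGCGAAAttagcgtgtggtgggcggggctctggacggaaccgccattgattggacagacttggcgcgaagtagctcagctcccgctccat
Tyms, chr9:120776084-120776183, minus strand: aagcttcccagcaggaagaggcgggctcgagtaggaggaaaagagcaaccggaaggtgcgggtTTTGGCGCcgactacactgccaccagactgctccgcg
Gins1, chr3:160184820-160184919, plus strand: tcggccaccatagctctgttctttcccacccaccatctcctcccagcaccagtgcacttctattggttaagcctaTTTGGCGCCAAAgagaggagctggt
Mcm2, chr4:122918095-122918194, minus strand: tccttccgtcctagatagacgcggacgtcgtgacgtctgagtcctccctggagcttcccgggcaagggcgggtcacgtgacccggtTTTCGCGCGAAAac
Gins3, chr19:9434680-9434779, minus strand: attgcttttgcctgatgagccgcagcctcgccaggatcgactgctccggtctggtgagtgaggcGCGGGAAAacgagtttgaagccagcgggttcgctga

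In Mcm5, Mcm6, Gins1 and Mcm2, matches on opposite strands overlap and form a single run of capitals, while Tyms and Gins3 hold 1 match each. Mcm5 has a further match, outside the stretch shown and beginning 8 bases before the start site. The match shown began 213 bases before the start site in Mcm5, 139 in Mcm6, 37 in Tyms, 36 in Gins3, 25 in Gins1 and 14 in Mcm2. The other matches were in Mcm7 and Pola1. The median gap between SKP arrays 1 and 2 and SKP array 3 was 0.72 over the 8 genes with a match and 0.77 over the 30 without. Rrm2, Ccne2, E2f8 and Cdc6, which had some of the largest gaps, had no promoter window and were not searched. Of the searched genes with the largest gaps, Mcm5 (2.79), Tyms (1.81) and Mcm6 (1.41) held a match, while Pole (1.68) and Uhrf1 (1.5) did not. The searched genes next in size held none, from Exo1 and Tk1 (both 1.38) through Cdt1, Rrm1, Mcm10, Dck, Ccne1 and Cdc45 to Dut (1.06). These are letter matches only, and factor binding was not measured.

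The comparison of nerve Schwann cells with SKPs asks how cultured Schwann cells of nerve origin differ from cultured skin precursors. Lower in nerve Schwann cells were Cdc6 of licensing, Gins3 of the helicase, Rfc4 of the clamp loader, the flap endonuclease Fen1, Tyms, Uhrf1 and the cyclin E gene Ccne1. Higher were Rfc3, the single-strand binding subunit Rpa2 and the primase subunit Prim1. As deposited, 3 of the 46 genes rose (49.7% of all genes did) and 7 fell (14.9% of all genes), so the share that fell was near the background. After cyclic loess 1 rose, against 22.4% of all genes, and 14 fell, against 25.6%. The median difference of the 46 genes was -0.14 as deposited and -0.56 after cyclic loess, beside 0.46 and -0.03 over all genes. Nerve and SKP arrays did not overlap for 4 genes that were higher (55.8% of all genes) and 7 that were lower (17.8%).

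The count depended on SKP array 3. Without it, 2 of the 46 genes rose (49.0% of all genes) and 16 fell (15.3%), with Gins3, Rfc3 and Rfc4 no longer called and Mcm5, Mcm6, Cdt1, Orc6, Pole, Lig1, Rrm1, Rrm2, Ccne2, E2f1 and E2f8 added to the fallen genes. Calls numbered 18 then (64.3% of all genes), against 10 with all arrays (64.6%). They numbered 5 without nerve array 1 or 2 (55.3% and 56.1%), 4 without nerve array 3 (57.2%) and 5 without SKP array 2 (60.5%). Without SKP array 1 there were 9, with 8 higher (47.9% of all genes) and 1 lower (13.4%). Only Fen1, Rpa2 and Prim1 were called whichever of the 9 arrays was left out.

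Fen1, which trims the flaps between Okazaki fragments, had log2 levels of 6.64, 6.65 and 6.58 in nerve Schwann cells, 6.24, 5.92 and 6.68 in SKP-derived Schwann cells and 7.79, 7.50 and 7.30 in SKPs. All 6 Schwann cell arrays lay below all 3 SKP arrays. It fell by 0.91 in nerve Schwann cells (SE 0.20, limma adjusted p = 0.00351, n = 3 per group) and by 1.42 after cyclic loess (limma adjusted p = 0.00052). Lig1, the ligase that seals the same fragments, had a difference of -0.30 that missed the threshold (limma adjusted p = 0.275) and passed it after cyclic loess at -0.60 (0.0461).

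Tyms makes thymidylate and had levels of 6.98, 7.02 and 6.79 in nerve Schwann cells, 7.61, 7.82 and 8.09 in SKP-derived Schwann cells and 8.97, 8.66 and 7.01 in SKPs. SKP array 3 lay among the nerve arrays. Tyms fell by 1.29 in nerve Schwann cells (SE 0.42, limma adjusted p = 0.0230), and without SKP array 3 it fell by 1.89 (7.73e-05). The call ended without nerve array 1 or 3, and also without SKP array 1 or 2 (highest adjusted p 0.084). Uhrf1, which guides maintenance methylation, was at 7.08, 6.64 and 6.83 in nerve Schwann cells and 8.84, 8.37 and 7.11 in SKPs, with 7.52, 6.90 and 8.22 in SKP-derived Schwann cells. It fell by 1.26 in nerve Schwann cells (SE 0.44, limma adjusted p = 0.0305), and it was lost when any 1 nerve array was left out, and also without SKP array 1 or 2 (highest adjusted p 0.11). Dnmt1, the maintenance methyltransferase that Uhrf1 recruits, was at 9.24 in each nerve array, at 9.40, 8.99 and 9.65 in SKP-derived Schwann cells and at 9.08, 8.89 and 8.16 in SKPs. The groups of nerve and SKP arrays did not overlap for Dnmt1, but its difference of 0.53 was not called (limma adjusted p = 0.0819).

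Cdc6, which loads the helicase, was at 6.50, 6.09 and 5.88 in nerve Schwann cells, 6.56, 6.54 and 7.22 in SKP-derived Schwann cells and 7.79, 7.64 and 6.21 in SKPs. It fell by 1.06 in nerve Schwann cells (SE 0.39, limma adjusted p = 0.0384), and the call ended without nerve array 2 or 3, SKP-derived array 1, or either of SKP arrays 1 and 2 (highest adjusted p 0.134). Ccne1, whose cyclin drives entry into S phase with CDK2, had levels of 6.68, 6.87 and 6.14 in nerve Schwann cells, 7.03, 7.19 and 8.0 in SKP-derived Schwann cells and 8.05, 7.84 and 6.86 in SKPs. For both genes SKP array 3 lay within the range of the nerve arrays. Ccne1 fell by 1.03 (SE 0.36, limma adjusted p = 0.0292), with the call lost without nerve array 1 or 3, and also without SKP array 1 or 2 (highest adjusted p 0.104).

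Rfc4 was at 6.04, 6.34 and 5.90 in nerve Schwann cells, 6.54, 7.65 and 7.27 in SKP-derived Schwann cells and 7.13, 6.37 and 7.08 in SKPs, so that SKP array 2, not array 3, lay nearest the nerve arrays. It fell by 0.76 in nerve Schwann cells (SE 0.30, limma adjusted p = 0.0465). Gins3 was at 6.34, 6.31 and 6.21 in nerve Schwann cells, 6.14, 6.44 and 6.47 in SKP-derived Schwann cells and 6.65, 6.53 and 6.72 in SKPs. Its fall was small, by 0.34 as deposited (SE 0.13, limma adjusted p = 0.0472) and by 0.95 after cyclic loess (0.000529). The Rfc4 call ended without any 1 nerve array, SKP-derived array 3, or either of SKP arrays 1 and 3 (highest adjusted p 0.136), and that of Gins3 without any 1 nerve array or SKP array 1 or 3 (up to 0.143).

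The genes that rose in nerve Schwann cells were Prim1, Rpa2 and the clamp loader gene Rfc3. Prim1, the catalytic primase subunit, was at 8.88, 8.91 and 8.89 in nerve Schwann cells, 8.84, 7.89 and 9.12 in SKP-derived Schwann cells and 8.37, 7.10 and 7.30 in SKPs. It rose by 1.30 (SE 0.37, limma adjusted p = 0.0115) and, after cyclic loess, by 1.02 (0.0371). Median centring ended the Prim1 call (0.70, adjusted p = 0.152), as did cyclic loess without SKP array 3 (0.84, 0.101). Rpa2 was at 7.90, 8.11 and 8.13 in nerve Schwann cells, 7.87, 7.86 and 8.50 in SKP-derived Schwann cells and 7.57, 7.23 and 6.78 in SKPs, with all Schwann cell arrays above all SKP arrays. Its rise of 0.85 (SE 0.24, limma adjusted p = 0.0103) became 0.53 after cyclic loess and was no longer called (0.0779). Rfc3 rose by 0.78 as deposited (limma adjusted p = 0.0401), but not after cyclic loess (0.39, adjusted p = 0.3), nor without any 1 nerve array, or either of SKP arrays 2 and 3 (highest adjusted p 0.125).

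Several genes central to S phase were not called in this comparison, and their SKP arrays lay far apart. Rrm2 was at 8.16, 7.13 and 6.56 in nerve Schwann cells, 9.76, 9.38 and 10.38 in SKP-derived Schwann cells and 10.40, 10.05 and 7.06 in SKPs. SKP arrays 1 and 2 lay above every nerve array and array 3 within their range. The difference of -1.89 (SE 0.79) was not called (limma adjusted p = 0.0587), while without SKP array 3 it was -2.94 and called (0.000605). A second Rrm2 feature differed by -1.54. Mcm5 was at 7.22, 6.95 and 6.46 in nerve Schwann cells, 7.80, 6.86 and 8.45 in SKP-derived Schwann cells and 8.59, 8.03 and 5.52 in SKPs. Here SKP array 3 lay below every other array, and the difference moved from -0.51 (limma adjusted p = 0.548) to -1.43 without that array (0.0154). Mcm6 was at 7.56, 7.43 and 7.40 in nerve Schwann cells, 7.96, 7.66 and 8.99 in SKP-derived Schwann cells and 8.82, 8.50 and 7.26 in SKPs, and differed by -0.73 with all arrays (limma adjusted p = 0.154) and -1.20 without SKP array 3 (0.0125). SKP array 3 was singled out for low levels of these genes, so leaving it out was bound to lower the differences. Over the 9 fits that left out 1 array, Rrm2 ran from -2.94 to -1.27 and was called in 2. Mcm5 ran from -1.43 to 0.1 and Mcm6 from -1.20 to -0.42, each called in 1.

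The licensing factor gene Cdt1 was at 6.95, 6.75 and 6.59 in nerve Schwann cells, 6.40, 6.40 and 6.72 in SKP-derived Schwann cells and 7.53, 7.04 and 6.09 in SKPs. E2f1, an activator of this gene set, was at 6.72, 6.88 and 6.79 in nerve Schwann cells, 7.12, 6.87 and 7.95 in SKP-derived Schwann cells and 7.98, 7.53 and 7.07 in SKPs. Its nerve arrays all lay below its SKP arrays, with a difference of -0.73 (limma adjusted p = 0.0519), and of -1.15 after the loess rescaling, which was called (0.00961). Rrm1, the large reductase subunit, was at 9.04, 9.20 and 9.08 in nerve Schwann cells, 9.53, 9.45 and 10.05 in SKP-derived Schwann cells and 10.35, 10.03 and 9.03 in SKPs. Its difference of -0.70 was not called as deposited (limma adjusted p = 0.072) and passed after cyclic loess (-0.94, 0.0346). A second, dimmer Rrm1 feature differed by 1.00 in the opposite direction, so the sign of Rrm1 as deposited depends on the feature. That feature lay at 4.06 to 5.44, below the median of every array, and its difference after cyclic loess is not given here. Other helicase genes were not called as deposited: Mcm2 differed by -0.15 (8.80, 9.29 and 8.69 in nerve against 9.37, 9.15 and 8.70 in SKPs) and Mcm7 by 0.00 (8.99, 9.02 and 9.08 against 8.96, 9.12 and 8.99). Mcm2 was called lower after median centring (-0.75, adjusted p = 0.0386) and after cyclic loess without SKP array 3 (-0.65, 0.0441).

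**Figure D3:**
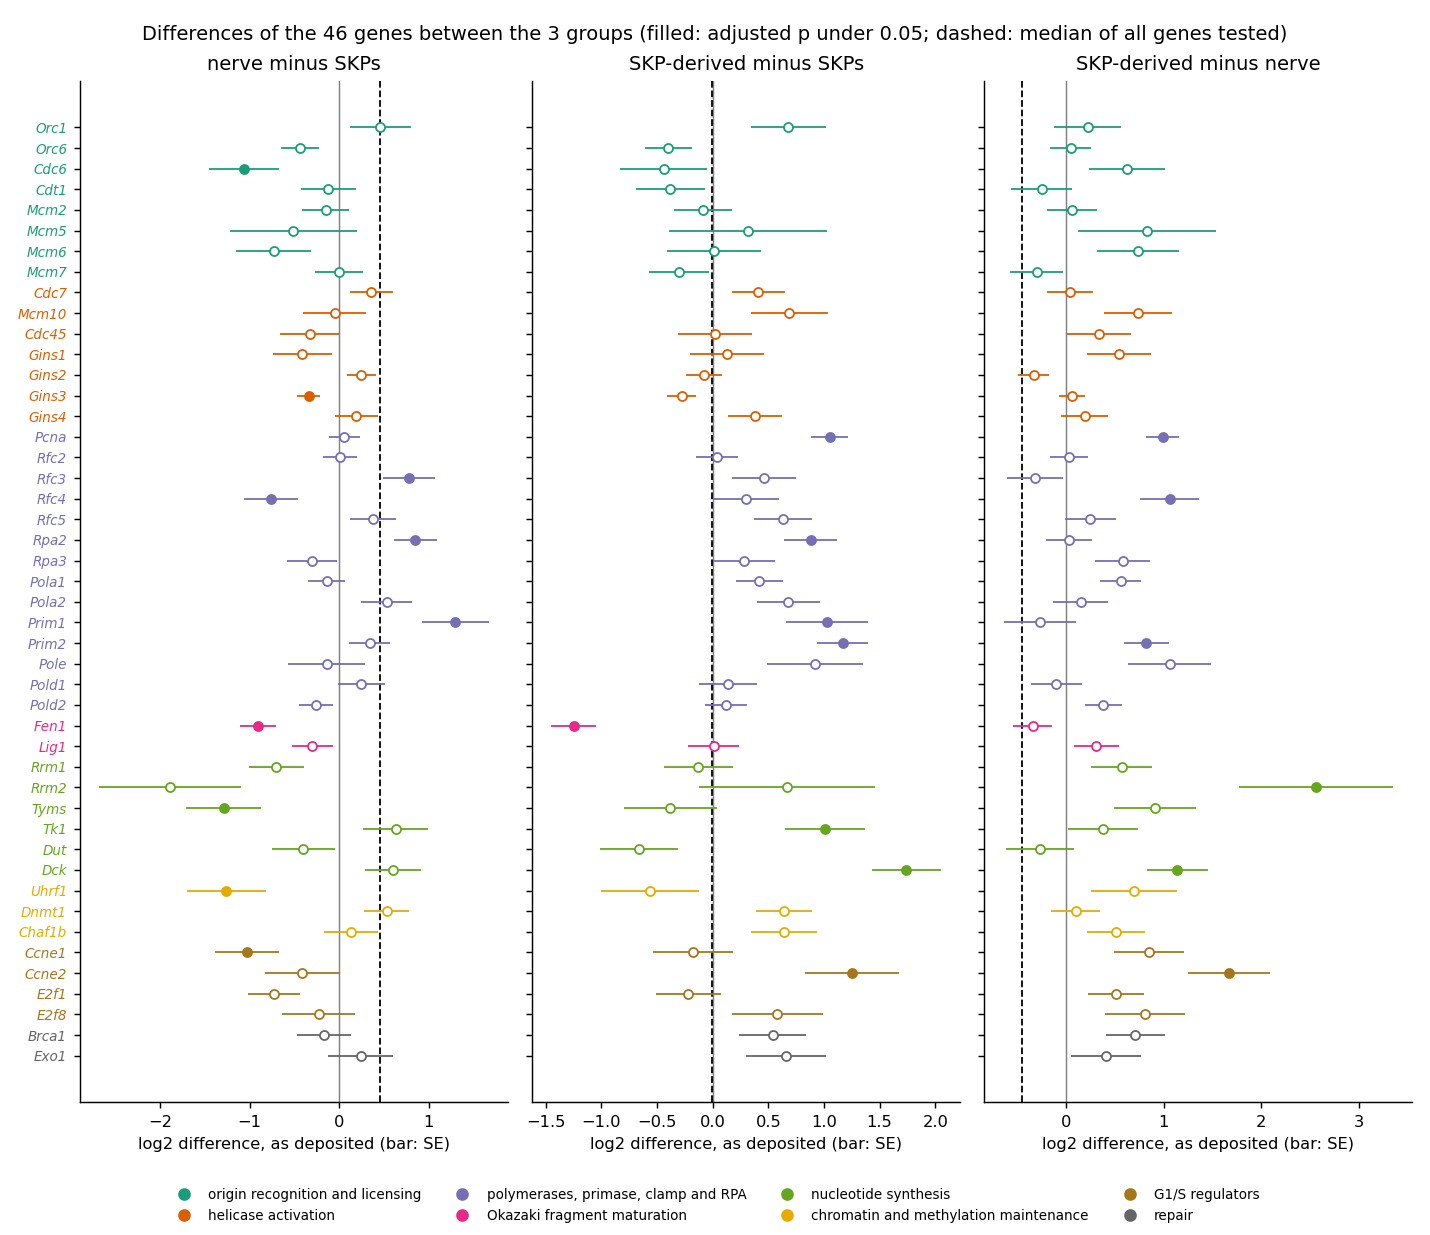
Log2 differences as deposited (x axis, bars give the SE) of the 46 genes (y axis, coloured by role) in the 3 comparisons; filled points are genes called by limma, and the dashed line is the median of all 14506 genes. In the right panel 38 of the 46 points lie above 0 although the dashed line is at -0.45, and in the left panel Fen1, Tyms, Uhrf1, Cdc6 and Ccne1 lie farthest below 0 among called genes.

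SKP-derived Schwann cells and the SKPs from which such cells are made differed at few of these genes. With all arrays the calls were mostly upward, but without SKP array 3 they were 5 upward and 7 downward. Higher in SKP-derived Schwann cells were the clamp gene Pcna, both primase subunit genes, Rpa2, the nucleoside kinase genes Dck and Tk1, and the cyclin E gene Ccne2; Fen1 was lower. As deposited, 7 of the 46 genes rose (19.3% of all genes) and 1 fell (22.3%). After cyclic loess 6 rose (18.6% of all genes) and 1 fell (23.9%), so the share that rose was near the background under both scalings. The median difference was 0.31, beside -0.01 over all genes. The groups did not overlap for 6 genes that were higher (22.1% of all genes) and 2 that were lower (25.8%).

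Dck phosphorylates deoxycytidine salvaged from outside the cell. It was at 8.50, 8.79 and 8.95 in SKP-derived Schwann cells, 7.75, 6.99 and 6.26 in SKPs and 7.69, 7.65 and 7.47 in nerve Schwann cells. Every SKP-derived array lay above every other array. It rose by 1.74 against SKPs (SE 0.31, limma adjusted p = 0.00192, n = 3 per group), and by 1.37 without SKP array 3 (0.0017).

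Pcna encodes the ring that tethers polymerases to DNA and was at 9.97, 10.55 and 10.30 in SKP-derived Schwann cells, 9.35, 9.21 and 9.10 in SKPs and 9.25, 9.17 and 9.40 in nerve Schwann cells. The SKPs and nerve cells overlapped, and the SKP-derived cells stood above both. The rise against SKPs was 1.05 (SE 0.17, limma adjusted p = 0.000894), and it was called in each fit that left out 1 array (adjusted p up to 0.00417). Unlike most of the genes, Pcna was not highest in SKP-derived array 3 and hardly differed among SKP arrays.

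Prim2, the regulatory primase subunit, was at 8.03, 8.11 and 8.50 in SKP-derived Schwann cells, 7.16, 6.87 and 7.11 in SKPs and 7.84, 7.41 and 6.93 in nerve Schwann cells. It rose by 1.17 against SKPs (SE 0.23, limma adjusted p = 0.00311). Rpa2 rose by 0.88 (SE 0.24, limma adjusted p = 0.0143) and Fen1 fell by 1.25 (SE 0.20, limma adjusted p = 0.00105). Both comparisons with SKPs use the same 3 SKP arrays. Dck, Pcna, Prim2, Rpa2 and Fen1 were called whichever of the 9 arrays was left out.

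The remaining calls were less stable. Ccne2 was at 7.36, 7.97 and 8.19 in SKP-derived Schwann cells, 7.26, 7.03 and 5.47 in SKPs and 6.29, 5.95 and 6.28 in nerve Schwann cells. It rose by 1.25 against SKPs (SE 0.42, limma adjusted p = 0.0386), and by 0.69 without SKP array 3 (0.0489). The call was lost when any 1 nerve array, or SKP-derived array 2 or 3, was left out (highest adjusted p 0.114). Tk1, the thymidine kinase of dividing cells, was at 7.47, 7.08 and 7.42 in SKP-derived Schwann cells, 7.04, 6.50 and 5.40 in SKPs and 7.24, 6.69 and 6.92 in nerve Schwann cells. Its rise of 1.01 (SE 0.36, limma adjusted p = 0.0471) was called in only 1 of the 9 fits that left out an array, the one without SKP array 1, and was not called after cyclic loess (0.0565). Prim1 rose by 1.03 (SE 0.37, limma adjusted p = 0.0485), and its call was kept in only 2 of the 9 fits, those without SKP-derived array 2 or SKP array 1. The spread behind these calls was pooled over all groups, nerve cells included. A fit of only the SKP-derived and SKP arrays called none of Ccne2, Tk1 and Prim1.

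Without SKP array 3 the picture against SKPs turned more even, with 5 genes risen (18.7% of all genes) and 7 fallen (22.2%). Added to the fallen genes were Orc6, Cdc6 (-0.94), Cdt1 (-0.77), Tyms (-0.98), Dut (-1.01) and Uhrf1 (-1.06), and the median difference became 0.05. Dut encodes the enzyme that keeps uracil out of DNA, and Orc6 a subunit of the origin recognition complex. The fit without SKP array 1 moved the other way, with 12 risen (16.6% of all genes) and 1 fallen (19.6%). Without SKP-derived array 3, 4 genes rose (18.5% of all genes) and 2 fell (21.2%), with Mcm7 added to the fallen, and the median difference was 0.19. The count of calls was 13 without SKP array 1 (36.2% of all genes) and 12 without SKP array 3 (40.9%). It was 6 without SKP-derived array 3 (39.7%), 8 with all arrays (41.6%) and 5 without any 1 nerve array (36.9% to 37.7%).

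**Figure D4:**
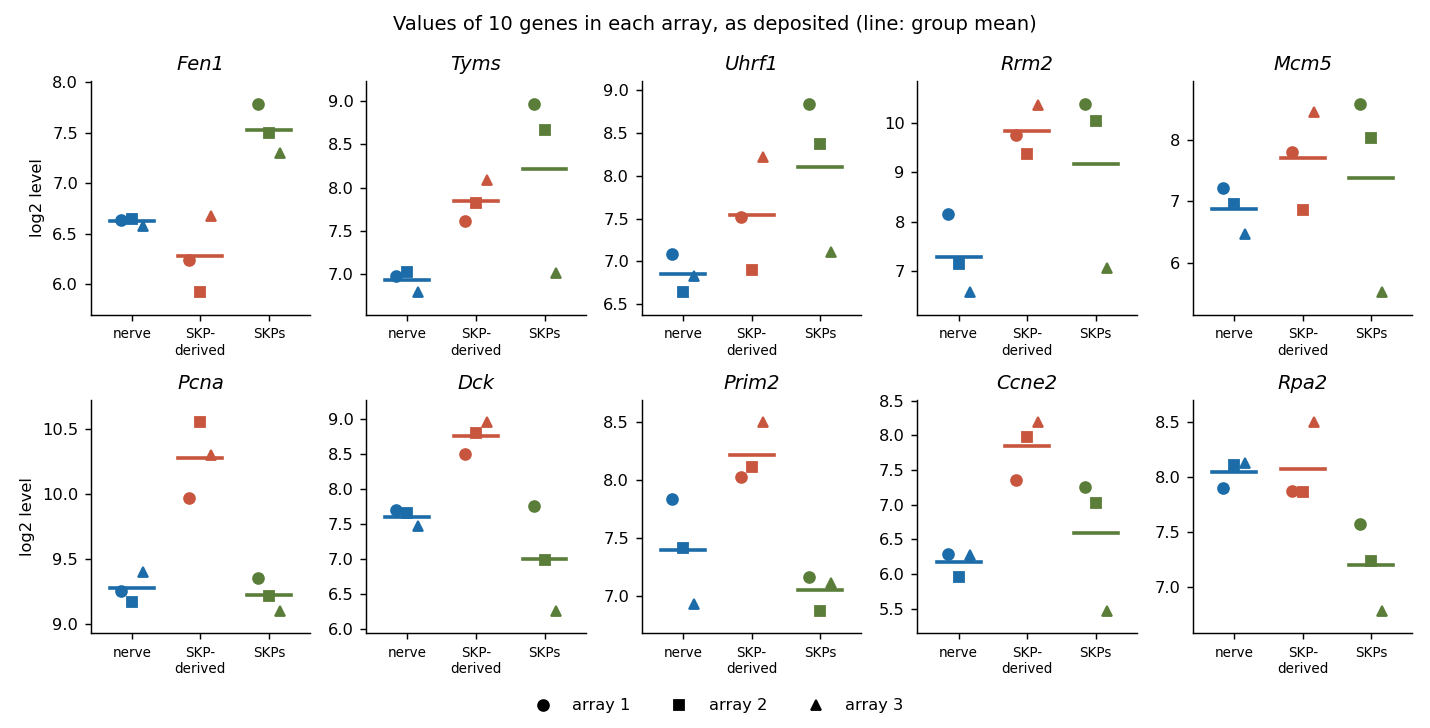
Log2 levels as deposited (y axes, a separate range per panel) of 10 genes in each of the 9 arrays, grouped on the x axis, with symbols for arrays and lines for group means. Fen1 is lower in all 6 Schwann cell arrays than in SKPs, Pcna, Dck and Prim2 are highest in SKP-derived Schwann cells, and the triangle of SKP array 3 lies far below the other SKP arrays for Tyms, Uhrf1, Rrm2, Mcm5 and Ccne2.

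The comparison of the Schwann cell groups with each other asks what differs between Schwann cells of skin and of nerve origin after growth in the same kind of medium. Replication genes were on the higher side in SKP-derived cells, against the trend of the whole array. Of the 46 genes, 38 had a positive difference as deposited and 45 after cyclic loess. The median difference was 0.40 and 0.82, beside -0.45 and -0.02 over all genes. As deposited 6 genes rose (1.33% of all genes) and 0 fell (42.3%), and after cyclic loess 2 rose (0.731%) and 0 fell (0.600%). At an unadjusted limma p-value under 0.05, 10 genes were higher (2.30% of all genes) and 0 lower (51.2%) as deposited. The groups did not overlap for 18 genes that were higher in SKP-derived cells, against 3.19% of all genes, and for 1 that was lower, Gins2, against 59.1%.

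Rrm2 had the largest difference, 2.56 (SE 0.79, limma adjusted p = 0.0274), with its second feature at 2.33. All 3 SKP-derived arrays, at 9.38 to 10.38, lay above the nerve arrays, at 6.56 to 8.16. The call ended without nerve array 2 or 3 or SKP-derived array 1 or 3 (adjusted p up to 0.0905), and after cyclic loess (2.83, adjusted p = 0.109). Ccne2 rose by 1.67 (SE 0.42, limma adjusted p = 0.0133), and Dck by 1.14 (SE 0.31, limma adjusted p = 0.0184). Their arrays did not overlap between the Schwann cell groups either. After cyclic loess Ccne2 differed by 2.12 and was not called (adjusted p = 0.0521), and the Dck call was lost as well (0.0623).

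Among fork genes, Rfc4 rose by 1.06 (SE 0.30, limma adjusted p = 0.0196), Pcna by 0.99 (SE 0.17, limma adjusted p = 0.00315) and Prim2 by 0.82 (SE 0.23, limma adjusted p = 0.0193). Pcna and Prim2 were the genes still called after cyclic loess, at 1.19 (0.0238) and 1.20 (0.0461). Pcna and Ccne2 were called whichever array was left out. The call of Rfc4 ended without nerve array 1 or 3 or SKP-derived array 2 or 3 (adjusted p up to 0.0676), and those of Prim2 (up to 0.0671) and Dck (up to 0.0606) without nerve array 2 or 3 or SKP-derived array 3.

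Among genes not called, Tyms differed by 0.91 (limma adjusted p = 0.105), Pole by 1.06 (0.068), Ccne1 by 0.85 (0.0786), Brca1, a repair gene of homologous recombination, by 0.71 (0.0765) and E2f8 by 0.81 (0.13). E2f8 was at 7.34, 6.92 and 7.78 in SKP-derived Schwann cells, 6.85, 6.49 and 6.27 in nerve Schwann cells and 7.42, 7.15 and 5.73 in SKPs. The lowest SKP-derived array lay only just above the highest nerve array for this gene. Genes with little difference included Mcm2 (0.06), Orc6 (0.05), the initiation kinase gene Cdc7 (0.04), Rfc2 (0.03) and Rpa2 (0.03), while Fen1 (-0.34), Mcm7 (-0.30), Gins2 (-0.33), Rfc3 (-0.32), Dut (-0.27), Prim1 (-0.27), Cdt1 (-0.25) and Pold1 (-0.10) were the genes on the lower side.

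All groups share 1 estimate of the spread, so SKP array 3 touched this comparison too. Without it, 14 genes rose (2.03% of all genes) and 0 fell (48.1%), adding Cdc6, Mcm10, Pola1, Pole, Rrm1, Tyms, Ccne1 and E2f8. The second, dimmer Rrm1 feature went the other way as deposited with all arrays, at -0.54 against 0.57 for the feature used. Without SKP-derived array 3, 2 genes rose (0.869% of all genes) and 2 fell (37.7%), the latter Mcm7 and Fen1, and the median difference was 0.20. Calls numbered 3 without nerve array 2 and 2 without nerve array 3, all of them higher (0.517% and 0.627% of all genes).

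**Figure D5:**
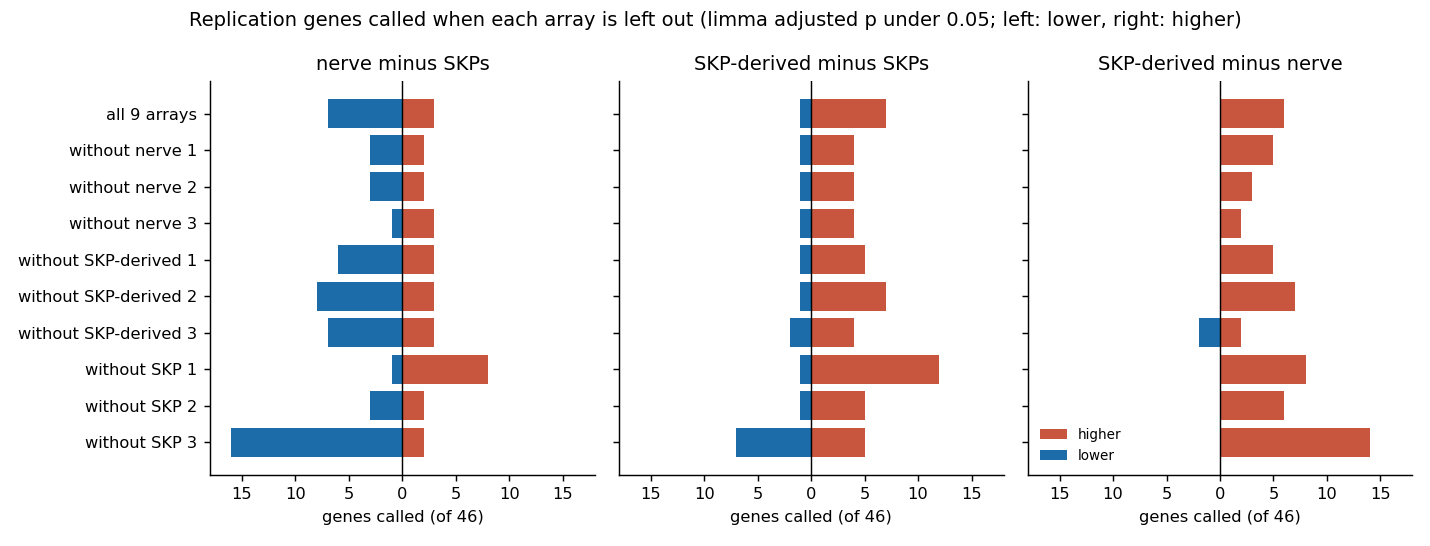
Number of the 46 genes called (x axis, lower to the left of 0 and higher to the right) with all arrays and with each of the 9 arrays left out (y axis), for the 3 comparisons. Leaving out SKP array 3 raises the count of genes that fell in nerve cells against SKPs from 7 to 16 and of genes higher in SKP-derived than in nerve Schwann cells from 6 to 14.

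Calls are given here by role, as deposited. Of all genes, 49.7% rose and 14.9% fell in nerve Schwann cells against SKPs. In SKP-derived cells 19.3% rose and 22.3% fell against SKPs, and 1.33% rose and 42.3% fell against nerve cells. After cyclic loess these shares were 22.4% and 25.6%, 18.6% and 23.9%, and 0.731% and 0.600%, in the same order. Of the 8 measured origin and licensing genes, 1 fell in nerve Schwann cells against SKPs and 0 were called in the other comparisons, with Orc1, the largest origin recognition subunit, at differences of 0.46 and 0.68 from SKPs. Of the 7 helicase activation genes 1 fell in nerve Schwann cells and 0 were called elsewhere; Mcm10, which joins the active helicase, differed by 0.74 between the Schwann cell groups (limma adjusted p = 0.111), Cdc45 by 0.34, Gins1 by 0.54 and Gins4 by 0.19. Of the 14 polymerase, primase, clamp and RPA genes, the largest role, 3 rose and 1 fell in nerve Schwann cells against SKPs. In SKP-derived Schwann cells 4 rose against SKPs and 3 against nerve cells. After cyclic loess the nerve count turned to 1 risen (22.4% of all genes) and 3 fallen (25.6%). The SKP-derived counts were then 4 risen against SKPs and 2 against nerve cells. Uncalled members of this group were Pola1 and Pola2, subunits of the priming polymerase, at 0.42 and 0.68 in SKP-derived cells relative to SKPs, with Rfc5 at 0.63, Rpa3 at 0.28, Pold1 at 0.14 and Pold2 at 0.12. Of the 6 nucleotide genes, 1 fell in nerve cells against SKPs, and in SKP-derived cells 2 rose against SKPs and 2 against nerve cells; after cyclic loess 2 fell, 1 rose and 0 were called, in the same order. Of the 4 G1/S regulators, 1 fell in nerve cells against SKPs, and 1 rose in SKP-derived cells against each other group. After cyclic loess 2 fell in nerve cells, and in SKP-derived cells 1 rose against SKPs and 0 against nerve cells. Of the Okazaki fragment genes, Fen1 fell in both Schwann cell groups against SKPs and Lig1 was not called. The chromatin assembly gene Chaf1b was 0.64 and the repair nuclease gene Exo1 0.66 above SKPs in the SKP-derived cells, neither of them called.

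Genes of the same pathways outside the 52 were read from further lists. Their counts stand beside the shares of all genes as deposited: 49.7% rose and 14.9% fell in nerve Schwann cells against SKPs, 19.3% and 22.3% in SKP-derived cells against SKPs, and 1.33% and 42.3% in SKP-derived against nerve cells. Counts after cyclic loess, here and in the next 2 paragraphs, stand beside 22.4% and 25.6%, 18.6% and 23.9%, and 0.731% and 0.600%, in the same order. Of 9 measured E2F and RB family genes, 3 rose and 0 fell in nerve Schwann cells, and 4 rose and 0 fell in SKP-derived Schwann cells, each against SKPs; after the loess rescaling the nerve count was 2 risen and 1 fallen. E2f5, which acts mainly as a repressor with pocket proteins, rose by 3.13 and 3.12 (limma adjusted p = 1e-05 and 1.04e-05), and Tfdp2, an E2F dimer partner, by 2.50 and 2.26. Ccna2, the cyclin of S and G2 phase, rose by 2.41 in SKP-derived Schwann cells against SKPs and by 1.69 against nerve cells (limma adjusted p = 0.0115), where the call was lost after cyclic loess (2.06, 0.0576). Among 19 fork and checkpoint genes 4 rose and 6 fell in nerve Schwann cells, and 3 rose and 6 fell in SKP-derived Schwann cells. Tipin, of the fork protection complex, fell by 1.60 and by 1.26, and the checkpoint kinase gene Chek1 fell by 1.39 and by 0.96, while Rnaseh2b, of the enzyme that removes ribonucleotides from DNA, rose by 1.60 and 1.27. Rpa1, another RPA gene, went opposite to Rpa2. It fell by 0.89 in nerve cells (limma adjusted p = 0.0258) and by 1.06 in SKP-derived cells (0.0187).

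Among 25 further nucleotide synthesis genes, 4 rose and 9 fell in nerve Schwann cells, and 3 rose and 8 fell in SKP-derived Schwann cells, against SKPs. Nme1, a nucleoside diphosphate kinase gene, fell by 1.94 in nerve cells and fell by 1.58 in SKP-derived cells. Nme2, of the same kinase family, fell by 1.56 and fell by 1.23. The mitochondrial folate enzyme gene Mthfd2 fell by 1.45 in nerve Schwann cells and was higher by 1.22 in SKP-derived than in nerve cells (limma adjusted p = 0.0141), a call lost after cyclic loess (1.47, 0.0642). Rrm2b, the p53-induced reductase subunit, fell by 0.88 in nerve cells and fell by 1.40 in SKP-derived cells against SKPs. Between the Schwann cell groups 1 gene of the list rose and 3 fell as deposited: Ctps2 (-0.73), a CTP synthase gene, Rrm2b (-0.52) and the pyrimidine synthesis gene Dhodh (-0.43). After cyclic loess 0 were called.

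Of 9 other origin and licensing genes, 4 rose and 1 fell in nerve Schwann cells and 6 rose and 0 fell in SKP-derived cells. Donson, a replisome assembly factor, rose by 0.91 and 1.01, Recql4 by 0.90 and 1.08 (not called in nerve cells after cyclic loess, 0.107), and Gmnn, the inhibitor of Cdt1, fell by 0.71 in nerve cells. Of 9 histone and chromatin assembly genes, 3 rose and 1 fell in nerve cells and 1 rose in SKP-derived cells, the fallen one being the helicase-like gene Hells (-1.25); after cyclic loess 1 rose and 1 fell in nerve cells. Of 8 recombination genes, 4 rose and 0 fell in each Schwann cell group against SKPs; after cyclic loess 0 were called in nerve cells and 3 rose in SKP-derived cells. Fanca rose by 1.05 and 1.00 and Brca2 by 0.86 and 0.92 as deposited. Between the Schwann cell groups, Fancd2, a crosslink repair gene, was 1.37 higher in SKP-derived cells (limma adjusted p = 0.0265). In that comparison 1 gene of the list rose and 1 fell as deposited, and 0 were called after cyclic loess (0.0715 for Fancd2). Of the 19 mitosis genes, 9 rose and 0 fell in SKP-derived against nerve Schwann cells as deposited (1.33% and 42.3% of all genes). In that comparison 1 rose after cyclic loess (0.731% of all genes), and 16 rose without SKP array 3 (2.03% of all genes). In nerve Schwann cells against SKPs 1 mitosis gene fell with all arrays (14.9% of all genes) and 15 without SKP array 3 (15.3% of all genes). In SKP-derived cells against SKPs 3 rose with all arrays (19.3% of all genes). Without SKP array 3, 2 rose (18.7% of all genes) and 1 fell (22.2%).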

How the data were processed

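The deposited values are log2 expression levels of 29214 features on 9 arrays, made by the authors: the submitters' processing notes name RMA and Expression Console. For software versions, genome build and whether arrays were normalised together, the answer is not given in the sources used here. Features took their names from the platform annotation, and 15310 with exactly 1 symbol were kept. All 46 genes matched RefSeq by Entrez identifier, with the same symbol.

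Group means of all 9 arrays were fitted with limma 3.58.1 in R 4.3.3 (lmFit, eBayes), and p-values were adjusted by Benjamini-Hochberg over 14506 genes. Adjusted p-values in the text come from limma. The script was tested on simulated data. Samples are called independent in the series text, and p-values measure the spread between them. No 2 arrays held identical values, and the array number limits the precision. The genes, lists and tests were chosen with earlier results of these data known.

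Genes given with full values were 17 fixed names and, per comparison, the 6 called genes with the largest difference; any of the 46 could be named with its difference. Of the other pathway lists, up to 3 called genes with the largest difference were named, and Rpa1 was added for its contrast with Rpa2. Alternatives were other scalings, a filter on low levels, the mean of a gene's features, fits of 2 groups, other variances, a replicate block, a stricter threshold and leaving out arrays. Cyclic loess without SKP array 3, and calls shared by all 4 scalings, were added after seeing the data.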

Additional observations from a re-analysis of the deposited data

How the results depend on the processing

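With all 9 arrays as deposited, 10, 8 and 6 of the 46 genes were called for nerve cells against SKPs, SKP-derived cells against SKPs, and SKP-derived against nerve cells, in that order below. Of all genes, 64.6%, 41.6% and 43.7% were called. Leaving out 1 array gave 4 to 18, 5 to 13 and 2 to 14 calls. In those fits 55.3% to 67.4%, 33.5% to 40.9% and 25.9% to 50.1% of all genes were called. For nerve minus SKPs, median centring gave 22 calls, all lower, where 48.7% of all genes were called and 31.6% were lower. Quantile normalisation gave 22, of which 21 were lower, where 48% were called and 25.8% were lower. The filter on low levels gave 6 (it left 26 of the genes), beside 57.9% of all genes it left. A threshold of 0.01 gave 1 (49.6% of all genes). Cyclic loess without SKP array 3 gave 28, all lower, where 48.5% of all genes were called and 26.7% were lower. For SKP-derived minus SKPs, the low filter gave 5, beside 57.7% of all genes it left. A fit of only these 2 groups (31.4% of all genes) and calls shared by all 4 scalings (35.7%) each gave 5. A threshold of 0.01 gave 4 (26.6%). For SKP-derived minus nerve, every call in the settings that follow was higher, and the shares are of all genes that were higher. Cyclic loess (0.731%) and the shared calls (0.476%) each gave 2. The low filter (0.648% of the genes it left) and a threshold of 0.01 (0.296%) each gave 1. A fit of only these 2 groups gave 12 (2.04%), and cyclic loess without SKP array 3 gave 16 (2.2%).

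The median difference of the genes in nerve minus SKPs was -0.14 as deposited, -0.75 after median centring, -0.56 after cyclic loess and -0.62 after quantile normalisation. It was -0.35 without SKP array 3 and -0.89 with cyclic loess and without that array, a setting that changed both. In SKP-derived minus nerve it was 0.40 as deposited, 0.87, 0.82 and 0.82 under the scalings, and 0.81 with both changes. In nerve minus SKPs, 3 differences turned negative and called: Pcna (-0.55) and Rfc2 (-0.59) after median centring, and Exo1 (-0.90) with cyclic loess and without SKP array 3. Exo1 was not called with either change alone (-0.48 and -0.22). The cause was not tested. Leaving out single arrays turned 0 called values round. The replicate block gave 8, 7 and 6 calls (64.1%, 40.7% and 42.5% of all genes). Same-numbered arrays correlated at -0.12 to 0.29 in their deviations from group means, over 0.1 in 3 of 9 pairs. The numbers were therefore not taken to pair the samples. With 3 arrays per group, the spread among SKP arrays limits what could be called.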
